A study of Mus musculus with 2 samples.

Results

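Open chromatin was described at 10 genes that encode tissue-specific regulators of alternative splicing, Rbm20, Rbm24, Mbnl1, Mbnl2, Celf1, Celf2, Rbfox1, Rbfox2, Qk and Ptbp1. Their peaks were those that the deposited ATAC-seq table assigned to the Ensembl identifiers of these genes, 10 of 24480 identifiers and 106 of 58076 peaks in all. Identifiers were paired with symbols by gene position on GRCm38, since the table lists no symbols, and the paired spans overlapped by 0.921 to 0.9999 of their union. In ATAC-seq the Tn5 transposase cuts and tags accessible DNA, so the count in a peak reports how open that stretch was. One library came from heart tissue of mice with a cardiac-specific Ythdc1 knockout, labelled Ythdc1 CKO, and 1 from heart tissue of Ythdc1flox/flox mice, which carry the floxed gene. Both were taken at 15 days of age on normal chow. The YTHDC1 protein binds RNA that carries N6-methyladenosine and acts in the nucleus. The design text names the question as the effect of cardiac Ythdc1 deletion on accessibility. The sources used here do not give the promoter that drives Cre, the deleted exons or the number of animals behind each library. With 1 library per genotype there was no test, and each interval below is an exact 95% interval that covers counting error only.

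Alternative splicing joins different exons of a transcript in different tissues, and it is steered by proteins that bind short motifs in the pre-mRNA near the exons they control. In heart muscle RBM20 and RBM24 act on transcripts of sarcomere and calcium handling genes, and loss of RBM20 alters titin isoforms. MBNL and CELF proteins act against each other on many exons as the heart passes from fetal to adult isoforms. RBFOX proteins bind GCAUG in RNA, Quaking binds RNA as a STAR family protein, and PTBP1 represses many muscle and neuronal exons. These are properties of the proteins. The values below concern the accessibility of the genes, not their RNA.

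The CKO library held 6466537 counts in peaks and the flox/flox library 6755590. CPM is the count in a peak scaled to the library's total over all peaks. A value is given as the log2 ratio of CPM, CKO over flox/flox, with 0.5 counts added to each count. A ratio is the same value without the logarithm and keeps the added counts, whereas its interval was computed without them. The promoter peak of Ythdc1 held 314 counts in the CKO library and 358 in the flox/flox library (ratio 0.916, 0.785 to 1.07), and it need not lie in the deleted part. Cardiomyocyte markers were open, with summed CPM over the promoter peaks of 6 of 8 markers of 307 in the CKO library and 343 in the flox/flox library (2 above and 4 below a log2 ratio of 0). Of this list Myl7 had no peak within 1 kb of its gene. The sums were 110 and 90.0 for 6 of 6 fibroblast markers, 148 and 120 for 6 of 6 endothelial markers and 89.2 and 76.1 for 5 of 6 mural markers, with the CKO library before the flox/flox library in each pair. They were 16.2 in the CKO library and 15.7 in the flox/flox library for 2 of 3 neuron markers. None of the myeloid, skeletal muscle or hepatocyte markers had a promoter peak by the matching used, which left 6 of those 11 markers unpaired, and Cd68, Adgre1, Lyz2, Myod1, Myf5, Myh4 and Alb had no peak within 1 kb. Cardiomyocyte markers thus had a lower sum in the CKO library and the fibroblast, endothelial and mural markers a higher one, but single markers differed in direction. Fibroblast markers split into 3 above 0 and 3 below, endothelial markers into 5 and 1, and mural markers into 4 and 1, with Kcnj8 at 108 counts in the CKO library and 176 in the flox/flox library (0.642, 0.5 to 0.819). The part of this in the results at the splicing regulators was not tested, and in whole heart fewer cells of a type and less open chromatin per cell cannot be told apart.

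Of the 106 peaks, 4 lay 2-fold or more above the flox/flox level in the CKO library, against 6.09% of all peaks, and 8 lay 2-fold or more below it, against 8.96%. As shares these were 3.77% and 7.55%, near or under the background. By the counting interval, 13 peaks (12.3%) lay above a ratio of 1, against 17.7% of all peaks, and 31 (29.2%) lay below it, against 21.7%. A log2 ratio below 0 was found at 63 peaks (59.4%), against 54.1% of all peaks, and the median was -0.13, against -0.05 over all peaks. Outside promoters 3 of 82 peaks were past 2-fold higher, against 7.79%, and 8 past 2-fold lower, against 12%. The 106 peaks comprised 24 promoter peaks (within 1 kb of a start site by the authors' annotation), 10 promoter flank peaks (1 to 3 kb), 50 intron peaks, 20 intergenic peaks and 2 peaks in 3′ UTRs. The authors called 55 in both libraries (51.9%, against 55% of all peaks), 15 in the CKO library alone (14.2%, against 15.9%) and 36 in the flox/flox library alone (34%, against 29.1%). All 12 peaks past 2-fold were called in 1 library alone, and a call in 1 library alone favours a high count there. None of the 55 called in both was past 2-fold, against 0.851% higher and 1.02% lower of all such peaks.

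**Figure D1:**
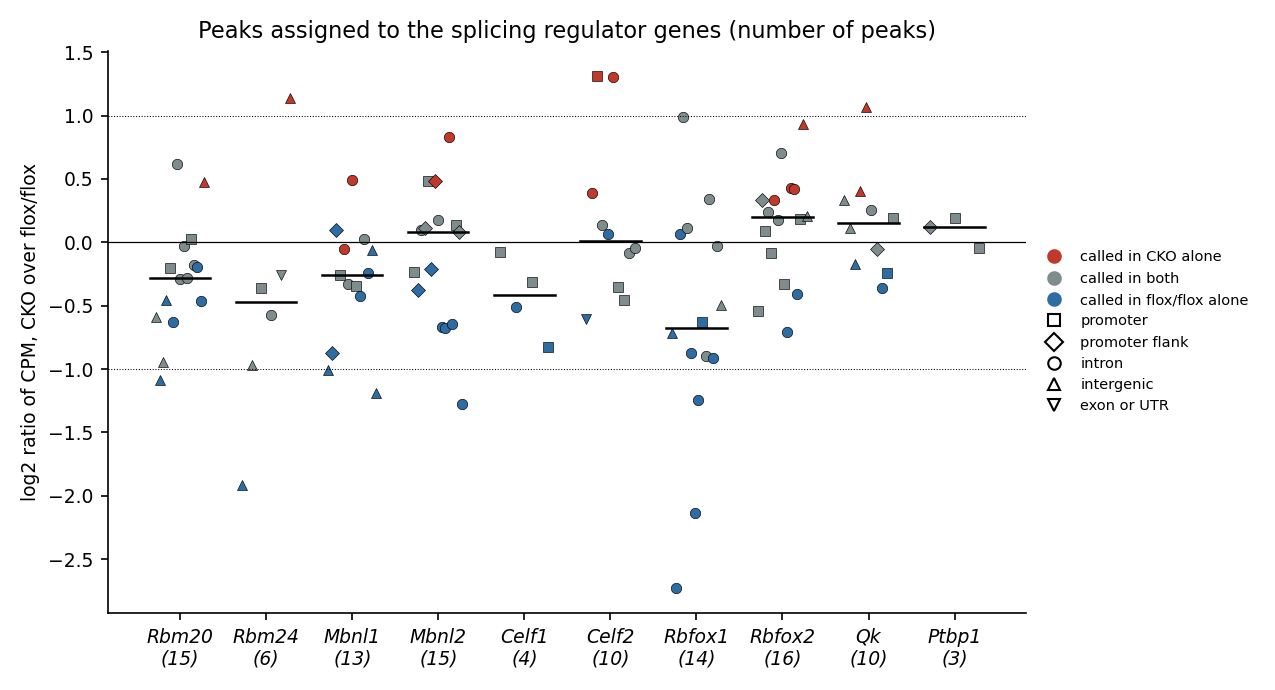
Each point is 1 peak assigned to a gene, with its log2 ratio of CPM, CKO over flox/flox, on the vertical axis and the number of peaks under each symbol; colours give the library in which the authors called the peak, shapes its annotation, black bars the median of the gene and dotted lines 2-fold. Rbfox1 held the lowest values, to -2.72, and its median was -0.67, whereas the medians of Mbnl2, Celf2, Rbfox2, Qk and Ptbp1 lay above 0.

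Summed over all their peaks, Rbm24 (ratio 0.699, 0.626 to 0.779), Rbfox1 (0.729, 0.659 to 0.806), Rbm20 (0.823, 0.780 to 0.869), Mbnl1 (0.848, 0.768 to 0.935) and Celf1 (0.860, 0.752 to 0.984) had lower CPM in the CKO library. Qk (1.19, 1.1 to 1.28) and Rbfox2 (1.07, 1.01 to 1.14) had higher CPM in it. The intervals of Mbnl2 (0.945, 0.881 to 1.01), Celf2 (0.980, 0.866 to 1.11) and Ptbp1 (1.05, 0.945 to 1.17) held 1. The share of all genes whose summed interval leaves out 1 was not computed, so this split is no result about these genes. On the authors' RPM scale, which shifts the median log2 ratio of all peaks by -0.17, the sums of Rbfox2 and Ptbp1 turned to log2 ratios of -0.07 and -0.098. That of Celf2 turned to 0.02 with median centring and with TMM and to 0.13 with a loess trend removed. The sums of the other 7 genes kept their sign under each scaling run, but that of Qk was 0.07 on the RPM scale, against 0.25 on the CPM scale, and so lay below its counting interval.

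**Figure D2:**
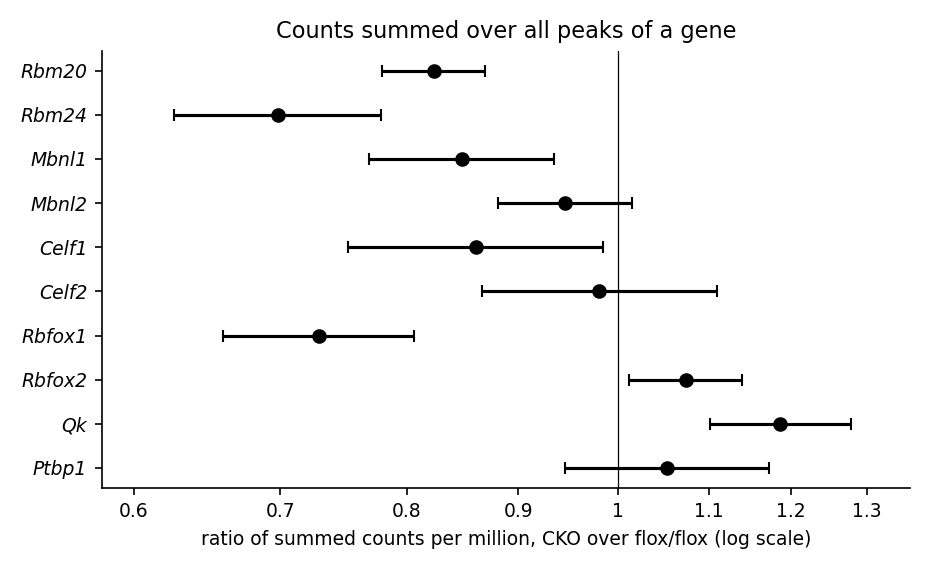
Ratio of CPM summed over all peaks assigned to a gene, CKO over flox/flox, on a log scale, with exact 95% intervals for counting error only. Rbm24 and Rbfox1 sit lowest, at 0.699 and 0.729, and Qk highest, at 1.19.

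At the promoters, no strongest peak of any of the 10 genes differed 2-fold, against 2.7% of promoter peaks higher and 2.87% lower in the whole table. Their median log2 ratio was -0.22, against -0.02 over all promoter peaks, with 8 below 0 and 2 above, against 52.4% of all promoter peaks below 0. By the counting interval 1 lay above 1 and 3 below 1, against 15.3% and 16.8% of all promoter peaks. The 10 peaks were picked as the strongest of each gene, with a median mean CPM of 43.3, against 21.1 over all promoter peaks. The shares thus come from a weaker set, and no 2-fold difference among 10 peaks cannot be told apart from them. The main promoter peak of Rbfox2 held 659 counts in the CKO library and 607 in the flox/flox library, and that of Qk 309 and 283. These were the pair above 0, with ratios of 1.13 (1.01 to 1.27) and 1.14 (0.968 to 1.35), and on the RPM scale the log2 ratio of the Rbfox2 peak was 0.0094. Ptbp1 had 278 counts in the CKO library and 300 in the flox/flox library at its start (0.968, 0.819 to 1.14). Rbm24 had 159 counts in the CKO library and 214 in the flox/flox library (0.777, 0.628 to 0.957), Mbnl1 had 257 and 321 in the same order (0.837, 0.707 to 0.989), and Celf2 103 and 148 (0.728, 0.560 to 0.941). These were the 3 whose intervals lay below 1. Rbm20 had 345 counts in the CKO library and 415 in the flox/flox library (0.869, 0.751 to 1.004), Mbnl2 185 and 227 (0.852, 0.697 to 1.04), Celf1 270 and 298 (0.947, 0.8 to 1.12) and Rbfox1 19 and 31 (0.647, 0.342 to 1.17), so that the counts at these 4 promoters do not set the ratio apart from 1.

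Per kilobase of peak, the promoter level in the CKO library was highest at Rbfox2 (91.1 CPM per kb, 84.3 to 98.3) and Mbnl2 (75.3, 64.8 to 87), and lowest at Celf2 (25.2, 20.6 to 30.6) and Rbfox1 (14.3, 8.59 to 22.3). In the flox/flox library Mbnl2 (88.4, 77.3 to 101) and Rbfox2 (80.3, 74 to 86.9) led in the other order, with overlapping intervals, and Celf2 (34.7, 29.4 to 40.8) and Rbfox1 (22.3, 15.1 to 31.6) again came last. The other 6 promoters lay from 37.4 to 66.3 CPM per kb in the CKO library and from 41.1 to 74.4 in the flox/flox library. Neighbours in the order of the CKO library had overlapping intervals except Qk and Rbm24, and Mbnl1 and Celf2. In the flox/flox library the exception was Ptbp1 and Rbm24.

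**Figure D3:**
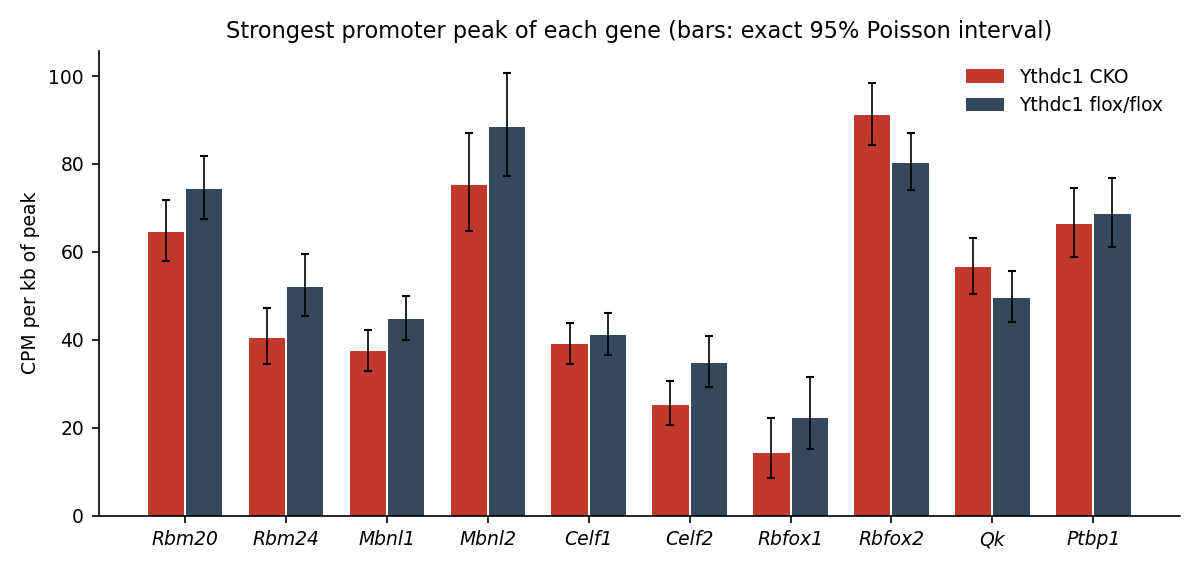
Level of the strongest promoter peak of each gene in CPM per kb of peak, CKO bars left of flox/flox bars, with exact 95% Poisson intervals. Rbfox2 and Qk are the genes with the taller CKO bar, and Rbfox1 has the lowest bars, at 14.3 in the CKO library and 22.3 in the flox/flox library.

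The RefSeq promoter windows (GRCm38.p6, 300 bases around a start site) gave 14 windows for 8 of the 10 genes, Rbm20 and Rbfox2 being without one in the table used, and 8 of the 14 overlapped a peak of their gene. The following 4 were picked by the ratio of the strongest promoter peak of each gene. Among these 10 peaks, those of the first 3 windows had the lowest ratios and that of the last, Ptbp1, the ratio nearest 1. No window overlapped the main promoter peak of Rbfox2 or Qk, the pair above 1. Capitals mark the motif letters searched on both strands, of which only CANNTG (E-box) and TGANTCA (AP-1) occurred in these 4. The windows lie at chr13:46418050-46418349, plus strand (Rbm24), chr2:7081253-7081552, minus strand (Celf2), chr16:7069585-7069884, plus strand (Rbfox1) and chr10:79854182-79854481, plus strand (Ptbp1).
Rbm24: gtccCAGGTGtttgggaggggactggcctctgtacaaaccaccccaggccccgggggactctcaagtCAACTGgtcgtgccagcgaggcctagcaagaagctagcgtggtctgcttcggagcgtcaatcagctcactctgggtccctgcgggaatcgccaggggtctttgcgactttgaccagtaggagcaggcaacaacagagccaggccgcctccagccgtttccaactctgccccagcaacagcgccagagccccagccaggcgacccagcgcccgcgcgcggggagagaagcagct
Celf2: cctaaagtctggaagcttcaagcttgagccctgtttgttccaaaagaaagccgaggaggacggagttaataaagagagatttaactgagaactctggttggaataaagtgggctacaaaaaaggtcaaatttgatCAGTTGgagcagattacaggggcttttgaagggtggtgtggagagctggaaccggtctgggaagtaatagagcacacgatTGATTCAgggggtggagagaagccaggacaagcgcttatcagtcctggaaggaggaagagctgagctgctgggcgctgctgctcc
Rbfox1: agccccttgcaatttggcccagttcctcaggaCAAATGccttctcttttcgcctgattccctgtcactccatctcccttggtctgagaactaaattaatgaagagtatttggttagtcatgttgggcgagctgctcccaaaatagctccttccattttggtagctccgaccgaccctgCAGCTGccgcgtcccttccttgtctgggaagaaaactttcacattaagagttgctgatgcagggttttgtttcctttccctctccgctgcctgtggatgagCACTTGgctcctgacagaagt
Ptbp1: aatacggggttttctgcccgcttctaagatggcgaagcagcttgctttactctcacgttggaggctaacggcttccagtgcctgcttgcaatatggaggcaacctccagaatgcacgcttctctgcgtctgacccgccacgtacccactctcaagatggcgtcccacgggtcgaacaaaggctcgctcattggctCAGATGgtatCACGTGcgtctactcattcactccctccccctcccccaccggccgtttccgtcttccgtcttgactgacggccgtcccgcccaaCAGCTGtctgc

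The Rbm24 window had a GC content of 64.7%, holds 2 E-box matches and lay whole inside its peak. The Celf2 window had a GC content of 49.3% and holds 1 AP-1 match and 1 E-box match, both inside the peak and not overlapping. The Rbfox1 window had a GC content of 50% and holds 3 E-box matches, of which 1 lay inside the peak. The Ptbp1 window had a GC content of 58.3% and holds 3 E-box matches, all inside the peak. Of 32817 RefSeq promoter windows of 300 bases, 72.3% hold an E-box match and 7.81% an AP-1 match. The MEF2 motif, which 3.69% of windows hold, was in none of the 4. Neither was the TEAD motif GGAATG, held by 14.7% of windows, nor the GATA motif AGATAA, held by 11.2%. The RBFOX motif written as DNA, GCATG, held by 33.1%, was also in none. A match is a stretch of letters, not a binding site.

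Gene spans below are those of RefSeq on GRCm38.p6. Rbm20 (ENSMUSG00000043639, chromosome 19, 53660989 to 53867083), the regulator of titin splicing, had a log2 ratio below 0 at 12 of 15 peaks, 1 of them past 2-fold. The 2 lowest ratios were upstream of the promoter peak. Of the 4 peaks listed from -15986 to -5576 bp before the Ensembl start, the first (53660565 to 53661320) held 175 counts in the CKO library and 275 in the flox/flox library. It covers the RefSeq start of Rbm20 at 53660989, although the table annotates it as intergenic. The second (53662149 to 53662628) held 66 counts in the CKO library and 147 in the flox/flox library, a log2 ratio of -1.09 (ratio 0.471, 0.345 to 0.631), and was called in the flox/flox library alone. The third (53670525) held 87 and 175, and the fourth (53671501) 48 and 69, in the same order. All 4 were lower in the CKO library, with a summed ratio of 0.590 (0.518 to 0.670), against 0.869 at the promoter peak (53676724 to 53677549).

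Within Rbm20, the 6 assigned peaks of intron 1 held 1109 counts in the CKO library and 1330 in the flox/flox library (0.871, 0.804 to 0.944). The strongest of all Rbm20 peaks (53801767 to 53802541) lay there, with 442 counts in the CKO library and 522 in the flox/flox library. The 6 assigned peaks leave out further intron 1 peaks under other identifiers, so they do not describe the whole intron. Of the 16 peaks in the span of Rbm20 under other identifiers, 8 lay above 0 and 8 below. Among the 6 assigned peaks the exception was a peak 27597 bp into the gene (53704903), called in both libraries. It held 106 counts in the CKO library and 72 in the flox/flox library, a ratio of 1.53 (1.13 to 2.10). A second promoter peak, at the start of a shorter transcript (53792995), held 207 and 212 counts in the same order and so hardly differed. Of the 15 peaks 9 were called in both libraries, and 7 of these 9 lay below 0.

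Rbm24 (ENSMUSG00000038132, chromosome 13, 46418102 to 46431099), which encodes an RNA-binding protein of heart and skeletal muscle, had 5 of 6 peaks below 0 and the lowest summed ratio of the 10 genes. The peak -4454 bp from its start (46413531 to 46413980) held 74 counts in the CKO library and 152 in the flox/flox library, just under 2-fold lower (0.510, 0.380 to 0.676), and was called in both. The peak in intron 3, the last intron, held 193 and 300 counts in the same order (0.673, 0.558 to 0.808), and that in the 3′ UTR 88 and 110 (0.837, 0.624 to 1.12). The promoter and all peaks inside the gene were thus lower in the CKO library. The peaks past 2-fold were 2 weak distal ones. Upstream at 46350169 there were 9 counts in the CKO library and 37 in the flox/flox library (0.265, 0.108 to 0.536), and at 46444109, beyond the 3′ end, 30 and 14 (2.20, 1.15 to 4.57). Each was called in the library where it was stronger, and alone there.

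**Figure D4:**
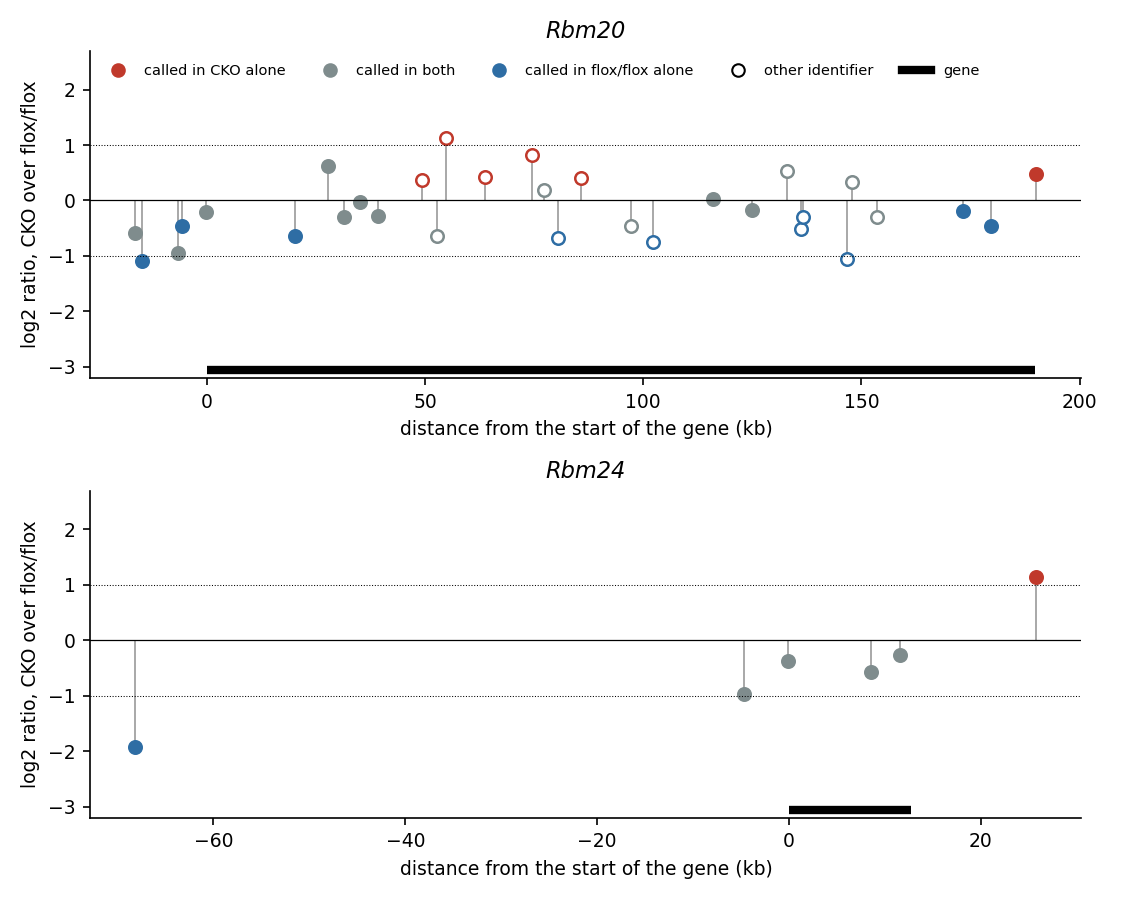
Log2 ratio of each peak, CKO over flox/flox, against distance in kb from the Ensembl start of Rbm20 (above) and Rbm24 (below); colours give the library of the call, filled points are peaks assigned to the gene, open points peaks inside its span under other identifiers, and the black bar is the gene. All 4 Rbm20 peaks upstream of the start lie below 0, as do all filled points of Rbm24 within the gene.

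Muscleblind genes encode zinc finger proteins that promote adult isoforms. Mbnl1 (ENSMUSG00000027763, chromosome 3, 60472559 to 60629750) had 10 of 13 peaks below 0, and Mbnl2 (ENSMUSG00000022139, chromosome 14, 120275652 to 120431698) 7 of 15. At Mbnl1 the promoter peak (60500908 to 60501970, 257 counts in the CKO library and 321 in the flox/flox library) held more counts than any other, and an inner promoter peak (60527867) held 64 and 85. The peaks past 2-fold were intergenic and weak, with 15 counts in the CKO library and 32 in the flox/flox library upstream at 60437722 (0.498, 0.246 to 0.931) and 14 and 34 beyond the 3′ end at 60648390 (0.439, 0.213 to 0.823), both called in the flox/flox library alone. The promoter peaks together held 321 counts in the CKO library and 406 in the flox/flox library (0.826, 0.711 to 0.959). The 6 intron peaks of Mbnl1 held 296 counts in the CKO library and 329 in the flox/flox library, an interval that holds 1 (0.940, 0.801 to 1.1). The interval of the promoter peaks of Mbnl1 thus lay below 1, but it overlapped that of the intron peaks. The 3 intergenic peaks held 63 counts in the CKO library and 103 in the flox/flox library (0.641, 0.459 to 0.883). All 3 were called in the flox/flox library alone, which favours a low ratio. Over all peaks of the whole table called in that library alone the summed ratio was 0.637.

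The peaks of Mbnl2 differed in direction. Its 3 promoter peaks together held 409 counts in the CKO library and 416 in the flox/flox library (1.03, 0.894 to 1.18), with the first start lower (185 and 227) and an inner promoter (120296339) higher, at 119 counts in the CKO library and 89 in the flox/flox library. In intron 2 of 8, which held 5 peaks, those at 120355175 (91 counts in the CKO library, 152 in the flox/flox library, ratio 0.627, 0.477 to 0.816), 120368903 (78 and 128) and 120341943 (39 and 65) were lower, and that at 120362571 was higher, with 72 counts in the CKO library and 42 in the flox/flox library. The lower ones were called in the flox/flox library alone and the higher one in the CKO library alone, so each direction goes with the call. The remaining peak of intron 2 (120336365), called in both libraries, held 143 counts in the CKO library and 132 in the flox/flox library (1.13, 0.887 to 1.44). The peak past 2-fold lay in intron 8 of 8 (120405655), with 21 counts in the CKO library and 54 in the flox/flox library (0.412, 0.233 to 0.684). Over the 7 peaks called in both libraries, the sum of Mbnl2 had a log2 ratio of 0.083, against -0.08 over all 15.

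CELF proteins bind GU-rich RNA and favour fetal isoforms in the heart. Celf1 (ENSMUSG00000005506, chromosome 2, 90940259 to 91019497) had 4 peaks, all below 0 and none past 2-fold. Its main promoter held 270 counts in the CKO library and 298 in the flox/flox library, and a second start (90964836) 80 and 104. The other 2 were weak, with 23 counts in the CKO library and 43 in the flox/flox library at 90965791 (0.564, 0.321 to 0.948) and 28 and 42 at 90950634. Apart from the peak at 90965791, each interval held 1. That peak and the peak at 90950634 were called in the flox/flox library alone. Over the 2 peaks called in both libraries the log2 ratio of the sum was -0.14, against -0.22 over all 4.

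Celf2 (ENSMUSG00000002107, chromosome 2, 6539694 to 7396341) lies on the minus strand and has several alternative starts, which differed in direction. The start near 7081449 had 103 counts in the CKO library and 148 in the flox/flox library, and that near 6872930 had 69 and 92 (0.785, 0.565 to 1.08). The innermost start (6721969 to 6722283) had 60 counts in the CKO library and 25 in the flox/flox library, 2.48 times as many CPM (1.55 to 4.17), and was called in the CKO library alone. Both upstream starts thus had lower counts and the innermost had a higher count in the CKO library. A further peak past 2-fold lay in intron 3 of 15 (6794973), with 29 counts in the CKO library and 12 in the flox/flox library (2.47, 1.25 to 5.43). Over all 10 peaks, 5 lay above 0 and 5 below. Over the 3 with a mean CPM at or over the median of all peaks, the log2 ratio of the sum was -0.32, against -0.03 over all 10.

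RBFOX proteins control exons of muscle and nerve. Rbfox1 (ENSMUSG00000008658, chromosome 16, 5884793 to 7412480), the form of muscle and neurons, had 10 of 14 peaks below 0 and 3 past 2-fold, all 3 in introns and called in the flox/flox library alone. In intron 3 of 11 the peak from 6716262 to 6716564 held 10 counts in the CKO library and 72 in the flox/flox library, the lowest ratio of the 106 (0.151, 0.0668 to 0.283). In intron 4 the peak from 6986062 to 6986469 held 21 counts in the CKO library and 98 in the flox/flox library (0.228, 0.133 to 0.361), and that from 6992272 held 11 and 28 (0.422, 0.184 to 0.850). All 3 had few counts in the CKO library, 10 to 21. Among stronger intron 4 peaks called in both libraries, that at 7099449 held 80 counts in the CKO library and 156 in the flox/flox library (0.537, 0.404 to 0.706), that at 6889194 149 and 144, and that at 7154717 97 and 80. One peak of intron 4 (6839580) went the other way with 63 counts in the CKO library and 33 in the flox/flox library, just under 2-fold. Without the 2 lowest peaks the summed ratio of Rbfox1 was 0.848 (0.761 to 0.943), and over its 6 peaks called in both libraries the log2 ratio was -0.098, against -0.46 over all 14, so the size of the sum rests on peaks called in the flox/flox library alone.

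Rbfox2 (ENSMUSG00000033565, chromosome 15, 77078990 to 77308434), the more widely expressed form, had 11 of 16 peaks above 0 and none past 2-fold. Its 5 promoter peaks were all called in both libraries and held 1309 counts in the CKO library and 1354 in the flox/flox library (1.01, 0.935 to 1.09). Of these 2 lay above 0 and 3 below. The outermost (77306269 to 77307387) was higher in the CKO library, and the innermost (77085814) was lower, with 80 counts in the CKO library and 122 in the flox/flox library. The promoter peak at 77245362 was also lower, with 141 counts in the CKO library and 185 in the flox/flox library (0.797, 0.635 to 0.997). The 4 assigned peaks of intron 2 all lay above 0, with 299 counts in the CKO library and 241 in the flox/flox library (1.3, 1.09 to 1.54), led by that at 77220146 (91 and 58, 1.63, 1.17 to 2.32). Another 3 peaks of intron 2, assigned to other identifiers, lay below 0, and the 7 together held 407 counts in the CKO library and 394 in the flox/flox library (1.08, 0.937 to 1.24). Over all 20 peaks in the RefSeq span of Rbfox2 the ratio was 1.03 (0.973 to 1.1), so its higher sum does not hold beyond counting error there. An intergenic peak at -29071 bp (77336075 to 77337000) held 299 and 270 counts in the same order. The assigned peaks of Rbfox2 thus summed to a slightly higher level in the CKO library on the CPM scale, and those of Rbfox1 to a lower one.

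**Figure D5:**
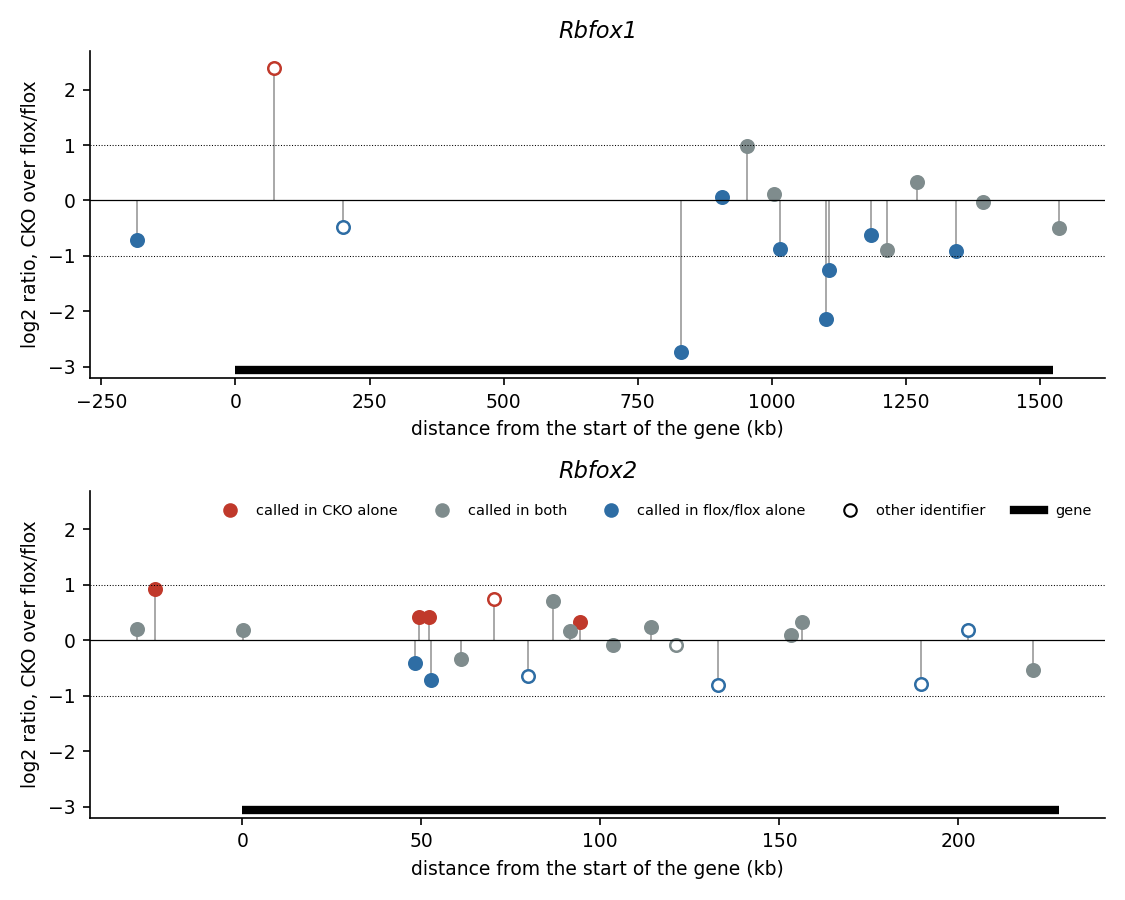
Log2 ratio of each peak, CKO over flox/flox, against distance in kb from the outermost Ensembl start of Rbfox1 (above) and Rbfox2 (below), drawn in the direction of transcription, with colours and open points as in the plot of the Rbm20 and Rbm24 loci. At Rbfox1 3 filled points lie below the lower 2-fold line, and at Rbfox2 none lies past either line.

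Qk (ENSMUSG00000062078, chromosome 17, 10206471 to 10319361) encodes Quaking, a regulator of muscle and myelin transcripts. Its higher sum came from beyond the 3′ end of the gene, where 5 intergenic peaks held 908 counts in the CKO library and 718 in the flox/flox library (1.32, 1.2 to 1.46). The peak from 10197577 to 10197915 held 191 counts in the CKO library and 95 in the flox/flox library, a ratio of 2.09 (1.63 to 2.72), and was called in the CKO library alone. It was the strongest of the 12 member peaks past 2-fold. Its neighbour at 10195501 held 122 and 96 counts in the same order, and a peak farther off (10093504 to 10094685), called in both libraries, 390 and 323 (1.26, 1.09 to 1.47). The other 5 peaks, at and inside Qk, held 590 counts in the CKO library and 601 in the flox/flox library (1.03, 0.914 to 1.15). Over the 4 peaks wholly within the Ensembl span of Qk, which leaves out the main promoter peak too, the log2 ratio of the sum was -0.12, against 0.25 over all 10.

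Ptbp1 (ENSMUSG00000006498, chromosome 10, 79854432 to 79864435), the polypyrimidine tract binding protein, which is low in mature muscle, had 3 peaks at or just before its start, all called in both libraries. They held 278 counts in the CKO library and 300 in the flox/flox library at the start, 229 and 209 at -525 bp, and 178 and 171 at -1872 bp. None of the 3 intervals left 1 out, and the largest log2 ratio was 0.19.

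Among 30 other splicing regulators, 23 could be paired with an identifier. The promoters of the unpaired genes (Mbnl3, Celf3, Esrp2, Elavl1, Srrm4, Rbm10 and Matr3) were not assessed. Of the 30, Mbnl3, Celf3 and Esrp1 had no peak within 1 kb. A matched promoter peak was found for 21, and none was past 2-fold in either direction. The median log2 ratio of the 21 was -0.0078, with 10 above 0 and 11 below. The counting interval lay above 1 for 4 and below 1 for 3, against 15.3% and 16.8% of all promoter peaks. The lowest were Rbm38, with 73 counts in the CKO library and 147 in the flox/flox library (0.521, 0.386 to 0.691), and Nova1, with 97 and 185 (0.549, 0.424 to 0.704). Hnrnpa1 had 101 and 56 in the same order (1.88, 1.35 to 2.66) and Rbm5 398 and 299 (1.39, 1.19 to 1.62). The Rbm38 peak was called in the flox/flox library alone and the Hnrnpa1 peak in the CKO library alone, which favours a high count there. Those of Nova1 and Rbm5 were called in both. Of 20 heart genes known as splicing targets of RBM20, MBNL, CELF or RBFOX proteins, all had a promoter peak and none was past 2-fold. Of these 16 lay below 0 and 4 above, against 52.4% below 0 among all promoter peaks, with a median of -0.21. The interval lay below 1 for 10 and above 1 for 2, against 16.8% and 15.3% of all promoter peaks. In both lists the strongest promoter peak of each gene stands against all promoter peaks, weak ones included. The nexilin gene Nexn had 247 counts in the CKO library and 411 in the flox/flox library (0.628, 0.534 to 0.737), and Pdlim3, a Z-disc LIM protein gene, 218 and 147 (1.55, 1.25 to 1.92). Cardiomyocyte markers, which share Ryr2 with this list, also had a lower sum in the CKO library, and the part of cell composition was not tested.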

How the data were processed

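Nuclei from mouse heart were profiled by ATAC-seq with paired-end sequencing, 1 library per genotype. BWA, MACS2 and GRCm38.p6 are named in the submitters' processing notes, without versions. The sources used here do not give read filters, duplicate removal, the Tn5 shift or whether reads or fragments were counted. The authors deposited raw counts per peak merged over both libraries, per the file headers. The deposited RPM values equal (count + 1) times 1 constant per library, 0.01822 (CKO) and 0.01965 (flox/flox). The authors' fold enrichment ratio served as a filter. The authors' log2 column was found to be that of their RPM ratio.

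From the counts, CPM over the peaks of the table, log2 ratios (0.5 counts added) and exact Clopper-Pearson 95% intervals were computed with Python 3.11.15 and scipy 1.17.1; TMM came from edgeR 4.0.16. The log2 ratios and intervals were tested on simulated Poisson counts, which hold no differences between animals or libraries. TMM was not tested. Intervals treat counts as independent molecules. Symbols were paired with identifiers where spans overlapped by at least 0.5 of their union with RefSeq. A 2-fold difference is a rule of size. Coordinates are as the table gives them. Named peaks were each gene's strongest promoter peak, each peak past 2-fold, and the highest and lowest peak outside promoters with a mean CPM at or over the median of all peaks; peaks named beyond these were chosen after their values were seen. The members and lists were chosen with earlier results of these data known.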

Additional observations from a re-analysis of the deposited data

How the results depend on the processing

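No paired analysis was possible because each genotype has 1 library. The 4 higher and 8 lower peaks past 2-fold became 2 and 14 on the authors' RPM scale, 7 and 5 with a loess trend removed, 1 and 1 for peaks with a mean CPM at or over the median, 1 and 4 with a fold enrichment of at least 10, 2 and 4 among peaks wholly within the Ensembl span, 0 and 0 among peaks called in both libraries, and 9 and 24 by a 1.5-fold rule. With 5 counts added the lower ones numbered 5. Of all 29039 peaks with a mean CPM at or over the median, 618 were past 2-fold higher and 657 lower, beside 1 and 1 of 66 member peaks. Of all 31957 peaks called in both libraries these were 272 and 327, beside 0 and 0 of 55. Under the other settings the share over all peaks was not computed, so those counts are no result about these genes. The median log2 ratio of the member peaks was -0.30 on the RPM scale, and from -0.18 to -0.03 under the other alternatives. The promoter median was -0.39 to -0.11. The smaller counts follow in part from fewer peaks entering; the cause of the other shifts was not tested. Of 273 alternative values of 36 named peaks, 1 left its interval and no value past 2-fold changed sign. A filter leaves the value of a kept peak as it was, so only the scalings and the 5 added counts could move a value. Those moved the median over all peaks by -0.17 to 0.06, so a change of sign past 2-fold was unlikely from the start. These counts are therefore no test of the named peaks. Of 99 alternative values of the 10 gene sums, 19 left their interval. The alternative over all peaks inside the RefSeq spans was chosen after seeing the data. With 1 library per genotype no library could be left out, and differences between animals cannot be told apart from differences between genotypes. Low counts at several peaks past 2-fold limit what single ratios show.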

Other observations

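Inside the RefSeq spans of the 10 genes lay 30 further peaks that the table assigns to other identifiers. These peaks were chosen after their values were seen. Rbm20 held 16 of them, 8 above 0 and 8 below, with 1838 counts in the CKO library and 2073 in the flox/flox library (0.926, 0.869 to 0.987), against 12 of 15 below 0 among the peaks assigned to it. In intron 1 of Rbm20, the peak at 53731876 held 133 counts in the CKO library and 63 in the flox/flox library (2.20, 1.62 to 3.03), that at 53751714 93 and 55, and the nearby peak at 53729716 was lower, with 215 counts in the CKO library and 350 in the flox/flox library (0.642, 0.539 to 0.763). Further along the gene, the peak at 53823949 held 43 counts in the CKO library and 94 in the flox/flox library (0.481).

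In intron 1 of Rbfox1, a peak at 5957584 held 27 counts in the CKO library and 5 in the flox/flox library and was called in the CKO library alone, with a ratio of 5.22 and a wide interval (2.14 to 18.8). It had the highest ratio of any peak in the 10 spans. In intron 2 of Celf2 a peak at 7060908 held 41 counts in the CKO library and 18 in the flox/flox library (2.34, 1.34 to 4.40). In the span of Rbfox2 lay 6 such peaks, 2 above 0 and 4 below, with 211 counts in the CKO library and 253 in the flox/flox library (0.872, 0.722 to 1.05). The lowest of these, at 77174062, held 24 counts in the CKO library and 44 in the flox/flox library (0.575, 0.331 to 0.958). At Mbnl2 a peak at 120387318, assigned to ENSMUSG00000097903, held 36 counts in the CKO library and 88 in the flox/flox library (0.431, 0.282 to 0.637).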
